A study of Mus musculus with 59 samples.

Results

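The 10 genes described here, Cdhr1, Doc2g, Tbx21, Eomes, Th, Pbx3, Sp8, Lgr5, Lgr6 and Cacng5, are known in the mouse as markers of olfactory bulb neurons. They were chosen by symbol among the 18088 genes of the deposited table, with earlier results of the same libraries in view. In those results markers of the bulb were among the genes most raised in heterozygous mice under vehicle, and their mean followed the main axis of variation between libraries. Any value that involves a vehicle library, and the way the 10 vary over the libraries, is therefore a description. Of these values, only the difference between the sexes over all groups carries p-values for the 10, which are a description too. RNA was sequenced from the prefrontal cortex of 59 mice of the C57BL/6J strain at postnatal day 25. The mice were wild type or heterozygous for the I48X allele of Dyrk1a, which encodes a kinase. From day 3 to day 24 the pups took vehicle, lithium, a mood stabiliser, or fluoxetine, a serotonin reuptake inhibitor, with the milk of the dam. Each genotype and drug was represented by 5 females and 5 males, except wild-type males on fluoxetine, with 4. The labels name no litter, dissection or batch, so the p-values below treat each mouse as independent. Pups of the same dam may share a drug, so differences between drugs cannot be told apart from differences between litters.

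The olfactory bulb lies at the front of the forebrain, beside the frontal cortex. Its output neurons, the mitral and tufted cells, are glutamatergic and receive the axons of olfactory sensory neurons in the glomeruli. Periglomerular and granule cells, the GABAergic interneurons of the bulb, are renewed by neuroblasts that reach it along the rostral migratory stream, and some periglomerular cells make dopamine. In bulk tissue, fewer cells of a type and less RNA per cell cannot be told apart.

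The libraries held 24391022 to 33842466 counts each. The targeted gene did not separate the genotypes by a lower level: Dyrk1a had its lowest, median and highest value at 2163, 2221 and 2327 normalized counts in wild-type and 2239.7, 2299 and 2415 in heterozygous vehicle mice. It was at 2119.6, 2189.7 and 2226 and 2141, 2330.3 and 2530.4 in the same order with lithium, and at 2066, 2155 and 2272 and 2182, 2348 and 4214 with fluoxetine, so its level does not check the genotype labels. Heterozygous fluoxetine males 3 and 4 stood apart from all other libraries. They had 4214 and 3278 normalized counts of Dyrk1a, and 8896 and 7867 of the striatal marker Ppp1r1b, which did not pass 2339 in the other 57. The tested comparisons that use them are given with and without them. Other values, among them the correlations, the sums over lists and the differences from vehicle, include them. A marker of the labelled tissue was present throughout: the vesicular glutamate transporter Slc17a7 ran from 24775 to 55403 normalized counts.

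The stretches before the starts of 3 mitral and tufted cell genes and of Th are shown, as given by RefSeq on GRCm38.p6, 5′ to 3′ on the strand of the gene. Any part of these stretches in the levels of the 10 genes was not tested. Windows ran from 250 bases before to 50 after each annotated start, and only bases before the start that no annotated exon covers are printed. The Th stretch lies within the span of the gene given below, before an annotated start inside it. Capitals mark a GC box (GGGCGG) or a cyclic AMP response element (CRE, TGACGTCA).
Cdhr1, chr14:37098348-37098597, minus strand: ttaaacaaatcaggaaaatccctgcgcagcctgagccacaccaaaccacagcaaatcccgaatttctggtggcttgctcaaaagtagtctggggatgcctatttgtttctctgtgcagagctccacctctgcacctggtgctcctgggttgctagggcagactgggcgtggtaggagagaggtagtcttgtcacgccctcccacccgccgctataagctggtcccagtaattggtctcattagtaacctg
Tbx21, chr11:97115332-97115581, minus strand: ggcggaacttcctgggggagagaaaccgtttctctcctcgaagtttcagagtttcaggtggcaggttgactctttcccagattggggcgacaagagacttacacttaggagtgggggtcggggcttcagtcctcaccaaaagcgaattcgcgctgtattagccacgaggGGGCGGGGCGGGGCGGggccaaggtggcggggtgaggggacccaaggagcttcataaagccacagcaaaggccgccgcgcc
Eomes, chr9:118477939-118478188, plus strand: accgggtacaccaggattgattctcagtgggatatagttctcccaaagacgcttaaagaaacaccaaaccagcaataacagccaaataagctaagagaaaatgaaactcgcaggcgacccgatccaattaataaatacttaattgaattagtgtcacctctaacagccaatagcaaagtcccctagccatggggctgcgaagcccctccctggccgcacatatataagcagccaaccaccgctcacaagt
Th, chr7:142900015-142900245, minus strand: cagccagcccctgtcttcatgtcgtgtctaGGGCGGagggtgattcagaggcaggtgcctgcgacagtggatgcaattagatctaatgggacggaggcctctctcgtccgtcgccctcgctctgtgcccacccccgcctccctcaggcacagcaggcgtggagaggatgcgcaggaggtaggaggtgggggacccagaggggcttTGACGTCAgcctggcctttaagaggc
Windows were found for 8 of the 10 genes, all except Lgr5 and Pbx3. The Th window held the CRE at bases -45 to -38 from the start and a GC box at -220 to -215. Of 32851 such windows, 1.79% hold this CRE on either strand, and of the 8 genes only Th does. The Tbx21 window held 3 overlapping GC boxes between -81 and -66, and 5 of the 8 genes had at least 1, against 35.7% of windows. Sp8 and Cacng5 have more than 1 window, so counts of genes and shares of windows are not like for like. No window of the 8 held the T-box core GGTGTGA, found in 3.98% of windows, or the NBRE AAAGGTCA, found in 1.51%. The homeodomain core TAATTA, in 5.29% of windows, was found for Sp8 only. The windows of Cdhr1 and Eomes held none of these 5 motifs, which were searched on both strands. A match is a description of the letters and shows no binding.

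Cdhr1 (ENSMUSG00000021803, chromosome 14, 37077857 to 37098347, minus strand, in the GENCODE M21 annotation of GRCm38, as are the positions below) encodes a protocadherin of mitral and tufted cells. Its values are given in full, since the other 9 genes followed it. In wild-type vehicle females, replicates 1 to 5 had 4664, 2645, 472, 6695 and 295 normalized counts, and the males 997, 116, 253, 175 and 396. Heterozygous vehicle females had 554, 5533, 3307, 244 and 2826, and males 1592, 4046, 10586, 10222 and 6996. The females of either genotype therefore spanned a wide range with no gap between genotypes, while every heterozygous male lay above every wild-type male. Wild-type mice on lithium had 3079.6, 4213, 297, 320.0 and 3790.1 in females and 3147, 182, 981, 553 and 293 in males. Heterozygous mice on lithium had 191, 1576, 6954, 5136 and 4916 in females and 8325, 2301, 5178, 2707 and 427 in males. In each of these 4 groups at least 1 library was high and at least 1 was low, and the genotypes overlapped. Wild-type mice on fluoxetine had 3195, 2019, 2915, 4477 and 4456 in females and 4214, 5659, 3926 and 3461 in males. Heterozygous mice on fluoxetine had 5368, 7100.4, 3987, 3761 and 4317 in females and 1290.0, 5269.7, 189, 281 and 867 in males. All 9 wild-type fluoxetine libraries were high, as were the heterozygous females, but only replicate 2 of the heterozygous males reached that range.

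**Figure D1:**
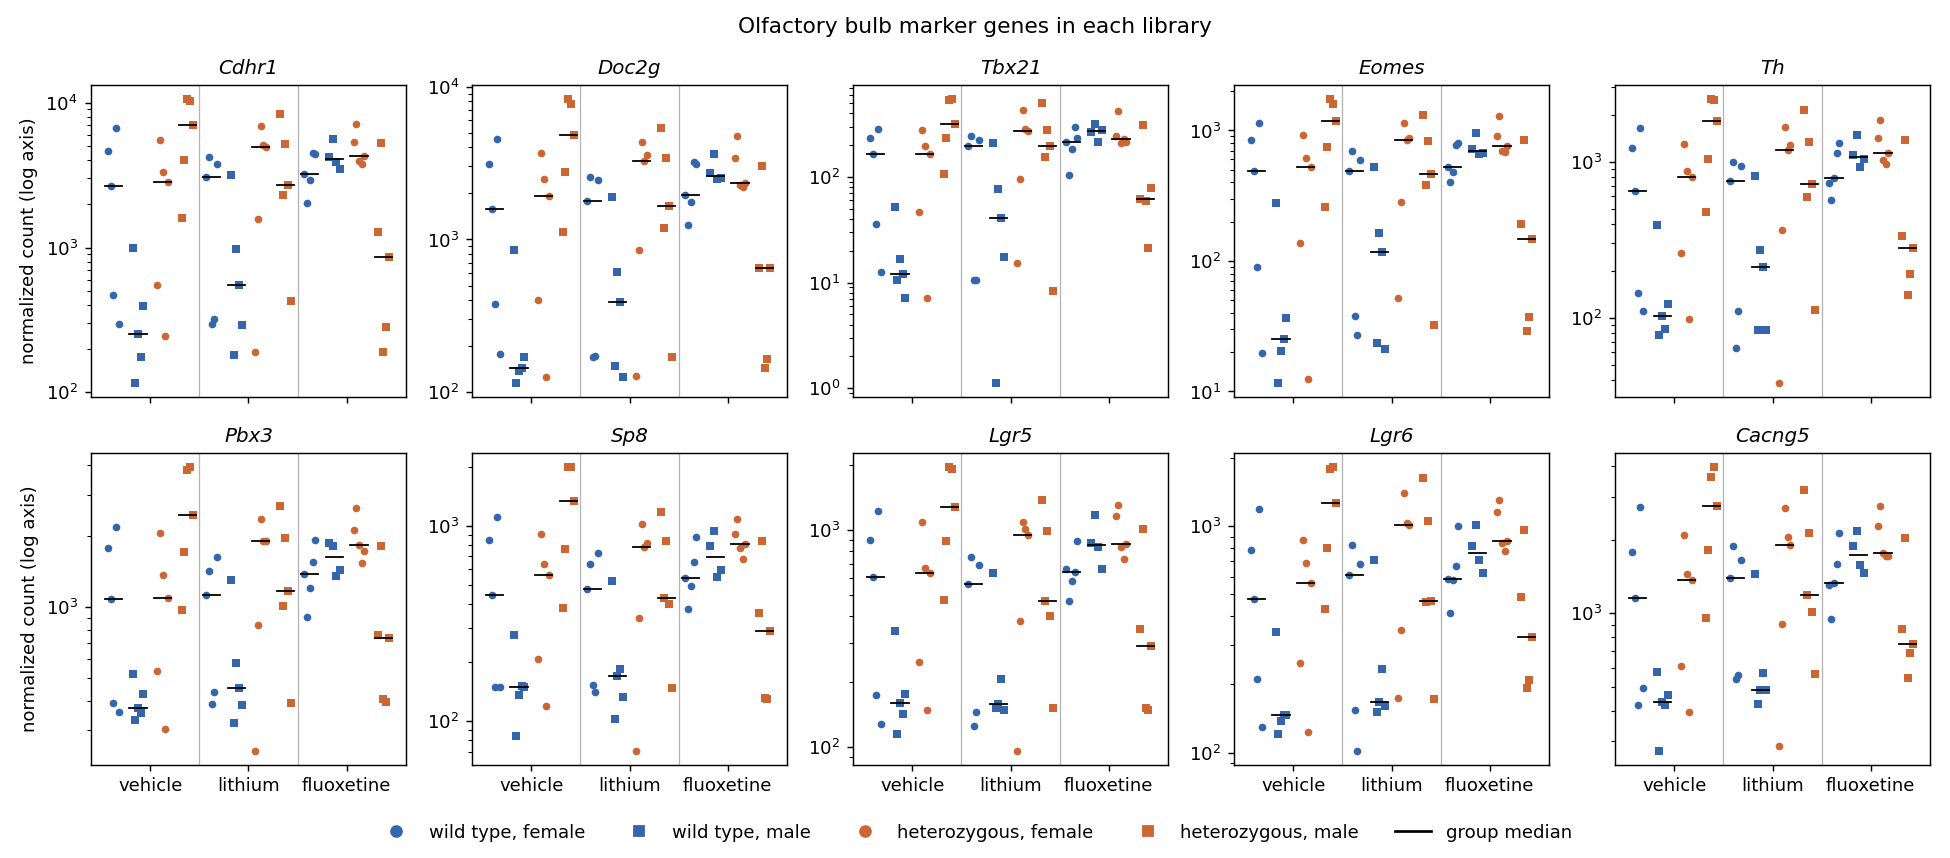
Normalized counts (log axis) of the 10 olfactory bulb markers in each of the 59 libraries, by drug (x axis), genotype (colour) and sex (symbol), with a bar at each group median. Largely the same libraries are high or low in every panel; wild-type fluoxetine libraries lie close together near the top, and wild-type vehicle males near the bottom.

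The 4 mitral and tufted cell genes had the widest spread of the 10. Doc2g (ENSMUSG00000024871, chromosome 19, 4003313 to 4007005), a double C2 domain protein, ran over the 59 libraries from 115 normalized counts in wild-type vehicle male 2 to 8273 in heterozygous vehicle male 3, with a median of 1906. Eomes (ENSMUSG00000032446, chromosome 9, 118478212 to 118486132), a T-box factor of mitral and tufted cells also known as Tbr2, ran from 11.6 to 1739 in the same 2 libraries, a ratio of 149. Tbx21 (ENSMUSG00000001444, chromosome 11, 97098071 to 97115331), the T-box factor T-bet, which is also known from T helper cells, ran from 1.12 to 546. Its lowest value was a single count in wild-type lithium male 2, so no fold is given for it. The SD of log2 values over the 59 libraries was 2.11 for Eomes, 1.94 for Tbx21, 1.89 for Doc2g and 1.86 for Cdhr1. They stood at places 47, 63, 77 and 79 among the 17901 genes tested, whose median SD was 0.20.

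Among the interneuron genes, Th (ENSMUSG00000000214, chromosome 7, 142892752 to 142931128), tyrosine hydroxylase, the rate-limiting enzyme of dopamine synthesis, ran from 38.2 in heterozygous lithium female 1 to 2523 in heterozygous vehicle male 3, with a median of 791 and an SD of 1.61 on the log2 scale. Sp8 (ENSMUSG00000048562, chromosome 12, 118846329 to 118852576), a zinc finger factor of interneurons born for the bulb, ran from 71.0 to 1997 in the same 2 libraries, with an SD of 1.22. Pbx3 (ENSMUSG00000038718, chromosome 2, 34171457 to 34373142), a homeodomain factor of the PBX family, ran from 246 to 3934, with an SD of 1.07. Th and Sp8 therefore shared their highest and lowest libraries, and all 3 genes were detected in every library.

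The receptor and channel genes had higher floors than the T-box factors. Lgr5 (ENSMUSG00000020140, chromosome 10, 115450311 to 115587780) and Lgr6 (ENSMUSG00000042793, chromosome 1, 134983301 to 135105276), receptors of R-spondins that raise the response to Wnt ligands, ran from 96.1 to 1959 and from 102 to 1834, with SDs of 1.23 and 1.18. Cacng5 (ENSMUSG00000040373, chromosome 11, 107874605 to 107915055), an auxiliary subunit of AMPA receptors, ran from 274 to 3978 and had the smallest SD of the 10 on the log2 scale, at 1.0, at place 344. Per kb of exon, medians over the libraries were 711 normalized counts for Cdhr1 and 628 for Doc2g. They were 357 for Cacng5, 334 for Th and 198 for Pbx3. The other 5 had less per kb: Eomes 127, Sp8 114, Lgr6 85.4, Tbx21 78.7 and Lgr5 61.9.

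The 10 genes ordered the libraries alike, though not identically. Over the 45 pairs, Spearman's rho across the 59 libraries ran from 0.95 (Tbx21 with Sp8) to 0.99 (Doc2g with Cdhr1). With each of the 12 group means removed, Pearson's r of the log2 values still ran from 0.87 (Tbx21 with Cacng5) to 0.99 (Doc2g with Cdhr1), with a median of 0.97. These points share their libraries, and the genes were chosen together, so the correlations carry no p. In 8 of the 12 groups a single library was the highest for all 10 genes, and in 5 a single library was the lowest for all 10. The groups accounted for 40.3% to 45.4% of the variance of each gene, against a median of 32.6% over the genes tested, so most of it lay between mice of the same genotype, drug and sex. The mean of the 10 centred log2 values had a Spearman's rho of 0.13 with the total count of the library.

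On a linear scale, levels per kb lay close to a straight line on Cdhr1 over the libraries, with an offset for some genes. A straight line on Cdhr1 left r2 values from 0.96 for Tbx21 to 0.99 for Th over the 59 libraries. The intercept, the level a line gives at no Cdhr1, was between -1.56% (Doc2g) and 2.1% (Th) of the highest level for Doc2g, Eomes and Th. For Tbx21 and Sp8 it was 2.38% and 3.45%. It was higher for Lgr5 (5.31%), Lgr6 (6.14%), Pbx3 (7.3%) and Cacng5 (9.15%). The Cacng5 intercept was 94.9 per kb, beside a lowest level of 71.6 and a median of 357. That of Pbx3 was 47.0, beside 40.2 and 198, so these genes were not proportional to Cdhr1. The lines missed the top libraries in a gene-specific way. Heterozygous vehicle males 3 and 4 lay 3.93 and 2.69 residual SDs above the line for Doc2g and 2.78 and 3.44 above it for Sp8. Male 4 lay 2.89 residual SDs above it for Pbx3, but at -2.78 for Eomes, below the line. Wild-type fluoxetine female 4 lay below the lines of both Lgr5 (-3.35) and Lgr6 (-2.71), and female 5 of that group above the line of Th (3.06).

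**Figure D2:**
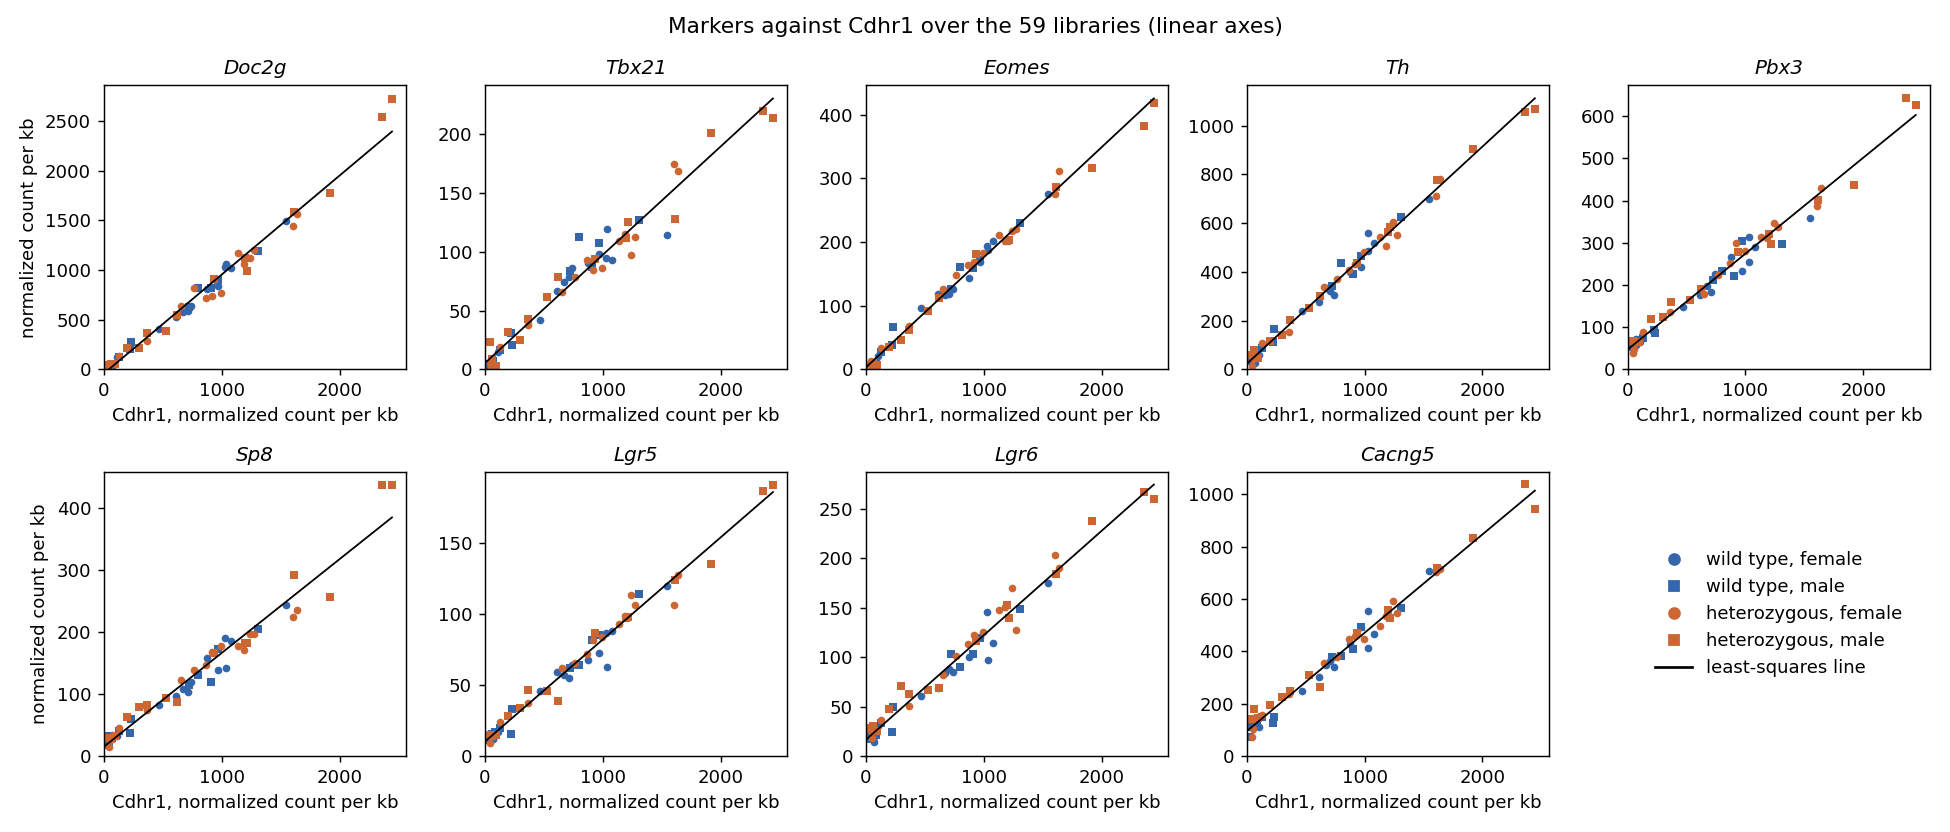
Normalized count per kb of exon of 9 markers against Cdhr1 per kb in the 59 libraries (linear axes), with the least-squares line. Points follow the lines for all 9 genes, and the 2 rightmost libraries, heterozygous vehicle males 3 and 4, lie above the line for Doc2g and Sp8.

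Under vehicle, the comparison by which the genes were known, heterozygous minus wild-type differences on the log2(normalized count + 1) scale are values only. With the sexes averaged they had a median of 1.58, from 1.21 to 2.24, with standard errors of 0.35 to 0.77. In that comparison limma called 13.1% of all genes at an adjusted p under 0.05. In females the 10 genes had a median of -0.05, from -0.16 to 0.04, with standard errors of 0.50 to 1.08. In males they had a median of 3.17, from 2.46 to 4.62, with standard errors of 0.50 to 1.08, where 36.7% of all genes were called. The female minus male difference of these effects was -3.18, from -4.75 to -2.51 (median and range), and there 16.0% of all genes were called. The males of the 2 genotypes did not overlap for 9 of the 10 genes, all except Eomes, and 12% of all genes had no overlap. Eomes had 277, 11.6, 20.3, 25.0 and 36.6 normalized counts in wild-type and 261, 751, 1739, 1591 and 1189.6 in heterozygous vehicle males, where wild-type male 1 passed heterozygous male 1. Tbx21 had 52.2, 10.7, 16.7, 12.1 and 7.11 in wild-type and 108, 233, 533, 546 and 318 in heterozygous males. For both T-box factors, replicate 1 was the highest of the wild-type males.

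The comparisons without vehicle libraries were tested. The axis of variation known when the genes were chosen also spans these libraries, so the tests are not independent of that choice. The comparison between the sexes over all groups is given with them, but it includes the vehicle libraries, so its p-values are a description. Since the 10 genes moved together, counts of them under a p are not counts of separate results. Between genotypes under lithium, no marker was called by limma at an adjusted p under 0.05, although all 10 had higher means in heterozygous mice and 6 had an unadjusted p under 0.05, as had 18.3% of all genes. The comparison called 2 genes, or 0.0112% of 17901, Mxd4 (0.22) and Pnrc1 (0.24), both named after their values were seen. Cdhr1 ran from 182 to 4213, with a median of 767, in 10 wild-type libraries, and from 191 to 8325, with a median of 3812, in 10 heterozygous ones, a difference of 1.38 ± 0.67 (limma adjusted p = 0.262). Eomes ran from 21.2 to 699, with a median of 139.6, and from 32.3 to 1317, with a median of 652, in the same order, a difference of 1.60 ± 0.77 (limma adjusted p = 0.259). Lgr6, with the smallest p of the 10, ran from 102 to 828, with a median of 200.2, and from 172 to 1632, with a median of 742, a difference of 1.06 ± 0.43 (limma adjusted p = 0.237). Both genotypes held libraries at the low and at the high end, and 7 or 8 of 10 heterozygous libraries lay above the wild-type mean of their sex for each gene. The 10 differences had a median of 1.10, from 0.69 to 1.60, against a median of -0.01 over all genes, and limma adjusted p-values of 0.237 to 0.286. The quasi-likelihood test of edgeR called 0 of the 10 as well, with all 10 at an unadjusted p under 0.05, beside 18.7% of all genes. The difference between the sexes in this effect had a limma adjusted p of 1 for every marker. In that difference limma called 0 genes, with 320 at an unadjusted p under 0.05, and edgeR called 0 of the 10.

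Between genotypes under fluoxetine the sign was the other way, with none of the 10 called or at an unadjusted p under 0.05 by limma or edgeR. The comparison called 2 genes, or 0.0112%, Moxd1 (-0.48) and Ucp2 (0.58), likewise named after their values were seen. Cdhr1 ran from 2019 to 5659, with a median of 3926, in 9 wild-type libraries, and from 189 to 7100.4, with a median of 3874, in 10 heterozygous ones, a difference of -0.94 ± 0.69 (limma adjusted p = 0.528). Th ran from 569.6 to 1479, with a median of 1036, and from 139 to 1846, with a median of 994, a difference of -0.64 ± 0.61 (limma adjusted p = 0.642). For each gene 6 of 10 heterozygous libraries lay above the wild-type mean of their sex and 4, all male, below it. The median of the 10 differences was -0.56, from -1.03 to -0.23, against -0.000793 over all genes. Without heterozygous males 3 and 4 it was -0.23, from -0.47 to 0.05, with the sign of Lgr6 turned. Males 3 and 4 had 189 and 281 normalized counts of Cdhr1, the lowest of the group, beside their high Ppp1r1b. The part of these libraries' tissue makeup in the difference was not tested.

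The difference between the sexes in the genotype difference under fluoxetine was 2.20, from 1.52 to 3.15 (median and range over the 10 genes, female minus male, standard errors 0.73 to 1.58). In females the markers had a median of 0.53, from 0.37 to 0.64, and in males of -1.67, from -2.60 to -1.01, where 9.05% of all genes were called. Limma called 7 genes in the difference between the sexes, or 0.0391%, and none of the 10 markers (adjusted p of 0.147 to 0.339). Of the 10, 6 had an unadjusted p under 0.05, as had 24% of all genes. Lgr5 had 661, 469.8, 584, 641 and 891 normalized counts in wild-type females and 1161, 1310.2, 836, 739 and 863 in heterozygous females. It had 874, 1173, 837 and 661 in wild-type males and 351, 1008, 151, 147 and 292 in heterozygous males, for a difference between the sexes of 2.14 ± 0.91 (limma adjusted p = 0.147). The heterozygous males were low except for replicate 2. Without that replicate Lgr5 was called (limma adjusted p = 0.0487), alone of the 10, but so were 13.7% of all genes, and the replicate was singled out after its values were seen. Without males 3 and 4 the median of the 10 was 1.53, with limma adjusted p-values of 0.669 to 0.73.

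Between the drugs in wild-type mice, every marker had a lower mean with lithium than with fluoxetine. None was called by limma in the fit to all 59 libraries (adjusted p of 0.116 to 0.159), although all 10 had an unadjusted p under 0.05, as had 18% of all genes. The quasi-likelihood test of edgeR also called 0, with all 10 and 17.2% of all genes at an unadjusted p under 0.05. The comparison called 28 genes, or 0.156%. Eomes ran from 21.2 to 699, with a median of 139.6, with lithium, and from 403 to 959, with a median of 667, with fluoxetine, a difference of -2.35 ± 0.79 (limma adjusted p = 0.129). Tbx21 ran from 1.12 to 244, with a median of 58.9, and from 104 to 317, with a median of 235, a difference of -2.33 ± 0.74 (limma adjusted p = 0.116). Sp8 ran from 103 to 720.4, with a median of 178, and from 373 to 936, with a median of 596, a difference of -1.31 ± 0.45 (limma adjusted p = 0.135). The upper lithium libraries reached the fluoxetine range, but 6 of 10 lay below the lowest fluoxetine library for each of the 10 genes. Cacng5 had the smallest difference, -0.97 ± 0.37 (limma adjusted p = 0.159). When limma was fitted to these 4 groups alone, all 10 were called lower with lithium (adjusted p of 0.00996 to 0.0351). That fit called 16.1% of all genes, 7.25% lower with lithium. Like the others it has no term for litters, which the labels do not name. Without heterozygous fluoxetine males 3 and 4, which enter only through the pooled spread, the adjusted p-values of limma over all other libraries were 0.0715 to 0.115.

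The spread between libraries was narrow in 3 of the 12 groups, all on fluoxetine. The mean of the 10 centred log2 values had an SD of 0.26 in wild-type males, 0.35 in heterozygous females and 0.45 in wild-type females on fluoxetine. In heterozygous fluoxetine males it was 1.28, and in the 8 other groups 0.81 to 1.72. With the sexes together the SD was 0.40 over the 9 wild-type fluoxetine libraries, and 1.34 to 1.56 in the other 5 combinations of genotype and drug. The difference in spread was not tested. In wild-type mice, 7 of 10 vehicle and 6 of 10 lithium libraries lay below the lowest fluoxetine library for every marker. In heterozygous mice, 2 to 4 of 10 libraries did so with each drug, depending on the gene. Fluoxetine minus vehicle differences in wild-type mice, which are values only, had a median of 1.73, from 1.25 to 2.77 (0.447% of all genes were called), and lithium minus vehicle differences a median of 0.21, from 0.00 to 0.43 (0.162%). In heterozygous mice the fluoxetine minus vehicle differences had a median of -0.39, from -0.72 to -0.15 (4.27% of all genes called), and lithium minus vehicle differences -0.27, from -0.50 to -0.14 (0.497%). These comparisons and those between the drugs share their libraries.

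Between the drugs in heterozygous mice the markers had a median of -0.01, from -0.10 to 0.30, with standard errors of 0.35 to 0.77. Limma called 588 genes there, or 3.28%, and none of the 10 (adjusted p of 0.836 to 0.996, 0 at an unadjusted p under 0.05, and 0 called by edgeR). Cdhr1 ran from 191 to 8325, with a median of 3812, with lithium, and from 189 to 7100.4, with a median of 3874, with fluoxetine, a difference of 0.30 ± 0.67. The standard errors leave room for differences in either direction. Without heterozygous fluoxetine males 3 and 4 all 10 were negative, with a median of -0.32. Between the sexes over all groups, female minus male, the 10 had a median of 0.35, from 0.27 to 0.73, against 0.00175 over all genes. This comparison includes the vehicle libraries, so its p-values are a description only. Without heterozygous fluoxetine males 3 and 4 the median of the 10 was 0.24. With all 59 libraries their limma adjusted p-values were 0.737 to 0.827. Limma called 28 genes, or 0.156%, and none of the 10, with 0 at an unadjusted p under 0.05 and 0 called by edgeR. For Cdhr1, 19 of 30 females lay above the mean of the males of their genotype and drug, and for Pbx3 15 of 30 did.

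**Figure D3:**
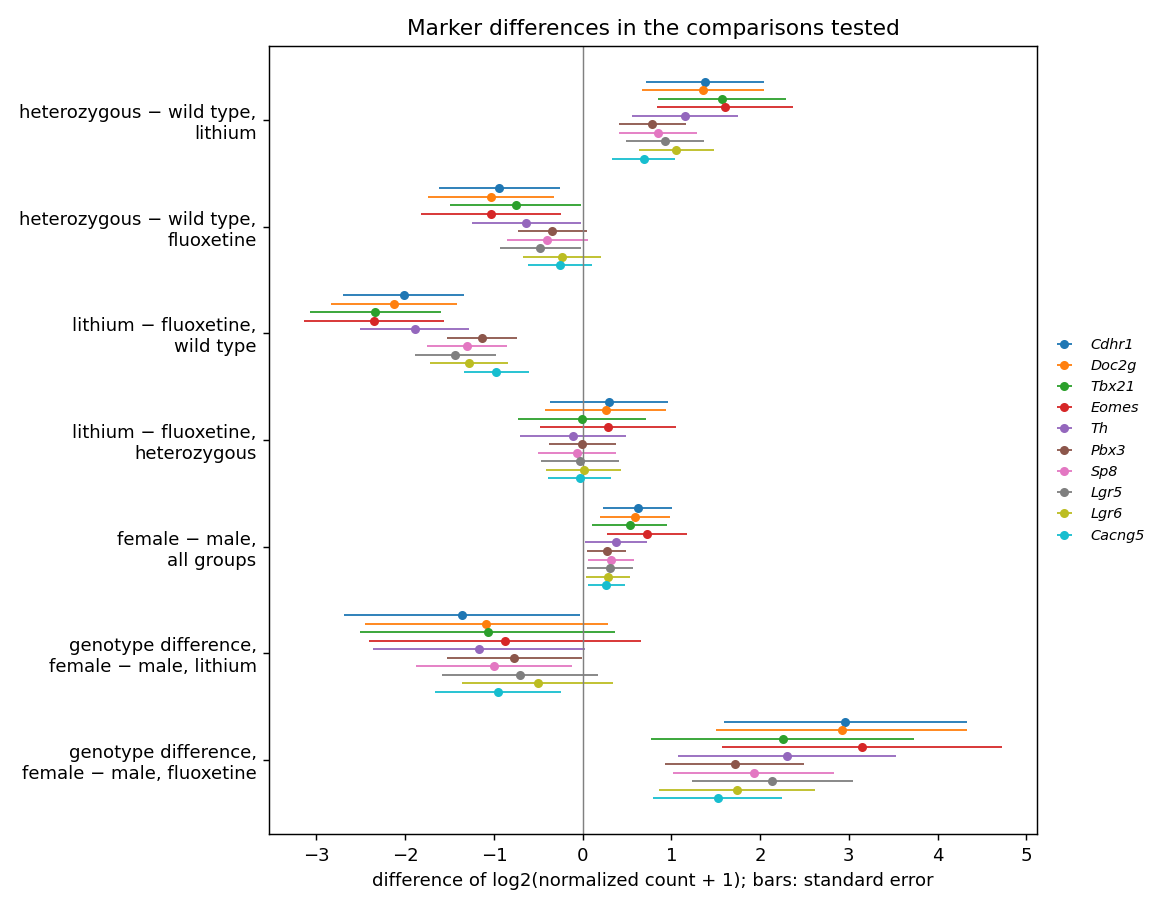
Differences of log2(normalized count + 1) with standard errors for the 10 markers in the 7 comparisons tested (y axis). Each colour is a gene, and the comparison between the sexes includes the vehicle libraries. In each comparison the 10 genes lie on the same side of 0 except between the drugs in heterozygous mice, and no difference passed an adjusted p of 0.05 in this fit.

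Ordered by mean log2 value, Cdhr1 was highest in heterozygous vehicle males, heterozygous fluoxetine females, and wild-type fluoxetine males and females. Wild-type vehicle males came last, below wild-type lithium males and heterozygous fluoxetine males. The gap between neighbours in this order exceeded their pooled SD in 0 of 11 places for Cdhr1 and for 6 others of the 10 genes. It did so in 1 of 11 for Eomes, Lgr5 and Pbx3. For Eomes and Lgr5 that place was between wild-type fluoxetine males and females, and for Pbx3 between heterozygous fluoxetine females and wild-type fluoxetine males.

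The genes most like the 10, by Spearman's rho with their mean over the 59 libraries, were Frmd7 (0.991), the homeobox gene Dlx2 of interneuron precursors (0.988), Shisa3 (0.988), Dlx1 (0.987) and Ptpro (0.987), followed by Tshz1, Vipr2, Gng4, Gpsm1 and Ms4a15. Shisa3 ran from 20.3 to 1783 normalized counts and Dlx1 from 588 to 7530.3. The single nearest gene was Dlx1 for Sp8 (rho 0.995), Shisa3 for Tbx21 and Eomes (0.976 and 0.987), and Gpsm1 for Th (0.990). It was Frmd7 for Cdhr1, Ms4a15 for Doc2g, Vipr2 for Lgr5, Sall1 for Lgr6, Ptpro for Pbx3 and Pcp4l1 for Cacng5. At the other end were Rab15 (-0.958), the calcium sensor Vsnl1 (-0.956), Arnt2, Rasgef1a, Tmem8b, the kinesin Kif5c, Ttc7b, Syt13, Acsl5 and Rab6b (-0.949). Vsnl1 lay between 5932 and 20133. Of 12835 genes with a median of 50 or more, 315 had a rho of 0.9 or above and 169 of -0.9 or below, around a median of -0.08. The targeted gene Dyrk1a had a rho of -0.11.

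Other genes of the bulb followed the 10. Of 7 other mitral and tufted cell markers tested, 5 had a rho of 0.9 or above (median 0.96): the neuropeptide gene Nmb (0.98), Shisa3 (0.99), Barhl2 (0.96), the matrix protein gene Reln (0.96) and Ebf3 (0.92). The summed level of the 7 was 2638 to 7354 normalized counts in wild-type vehicle, 2501 to 10261 in heterozygous vehicle, 2549 to 5463 in wild-type lithium and 4391 to 6734 in wild-type fluoxetine libraries. It was 2538 to 8706 in heterozygous lithium and 2776 to 7566 in heterozygous fluoxetine libraries. Barhl2 and Lhx5 were at 0 in their lowest library. Of 19 other periglomerular and granule cell markers, 14 had a rho of 0.9 or above (median 0.97), among them the calcium-binding protein gene Calb2 (0.98) and Sp9 (0.98). The summed level of the 19 was 14863 to 41647 in wild-type and 13760.1 to 64403 in heterozygous vehicle libraries, 14654 to 32023 and 14057 to 43723 in the same order with lithium, and 22299 to 37201 and 13778 to 44234 with fluoxetine. Between genotypes under lithium and under fluoxetine, between these drugs and between the sexes, none of the genes of either list was called. Between the drugs in wild-type mice the median difference was -1.51 for the first list and -0.90 for the second, both lower with lithium like the 10 markers.

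Markers of the cells that enter the bulb were compared in the same way. Of 7 migrating neuroblast markers, 5 had a rho of 0.9 or above, among them Dcx, a microtubule protein of migrating neurons (0.96), and Igfbpl1 (0.95). Dcx ran from 1719 to 11695 and Igfbpl1 from 14.2 to 776 normalized counts, while Tubb3, which all neurons share, had a rho of 0.26. Of 6 markers of ensheathing glia and the olfactory nerve, 3 did: Fabp7 (0.95), Omp (0.93) and Prss56 (0.92). Omp, the olfactory marker protein gene of mature sensory neurons, ran from 1.2 to 2017, with a median of 61.0 and its highest value in heterozygous vehicle male 3. S100a5 and Stoml3, also genes of sensory neurons and chosen after their values were seen, were at 0 in their lowest library and reached 774 and 711 in the same male 3. The cell bodies of sensory neurons lie in the nose and their axons end in the bulb. Npy, also in this list, did not follow (rho -0.40).

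Several of the 10 are also expressed outside the bulb, and markers of those cells were set beside them. For Th, 5 of 9 midbrain dopamine neuron markers had a row: Slc18a2 (0.95), Slc6a3 (0.89) and Ddc (0.65), which dopamine cells of the bulb also express, and Aldh1a1 (-0.61) and Lmx1b (0.26). Slc6a3, the dopamine transporter gene, reached 121 normalized counts and Lmx1b 25.6, where Th reached 2523. Summed, the 5 ran from 1296 to 1681 in wild-type lithium and 1257 to 1505 in wild-type fluoxetine libraries. Gene by gene, their median lithium minus fluoxetine difference in wild-type mice was -0.52. It was -0.62 for the neuroblast list and, of the lists below, -0.90 for Cajal-Retzius cells, 0.04 for progenitors and 0.22 for noradrenergic neurons. Of 4 noradrenergic markers only Dbh had a row, at up to 55.0 normalized counts with a rho of -0.25. For Eomes, a factor of cortical intermediate progenitors, 5 of 6 progenitor markers had a row and none had a rho of 0.9 or above: Insm1 had 0.78, Mfap4 -0.33, Neurog2 -0.41, Neurod4 -0.61 and Sstr2 -0.77. Their sum was 628 to 840.2 in wild-type lithium and 584 to 778 in wild-type fluoxetine libraries. Of 7 T and NK cell markers, set beside Tbx21, 0 had a row. Cajal-Retzius cell markers share Reln, Lhx5 and Ebf3 with the mitral cell list, and the fourth, Trp73, had a rho of 0.79 and ran from 8.85 to 533. Its highest values, 533 and 134, were in heterozygous fluoxetine males 3 and 4, where the 10 markers were low.

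Cortical projection neuron markers ran the other way. Of 14 tested, 11 had a rho of -0.5 or below, with a median of -0.78, among them Slc17a7 (-0.93) and Neurod2 (-0.92). Etv1 (0.83), which is also in the granule cell list, Foxp2 (0.70) and Bcl11b (0.33) did not. Summed over the 14, the levels were 62175 to 83975 in wild-type and 44385 to 82743 in heterozygous vehicle libraries, 68605 to 83585 and 56385 to 81009 with lithium, and 65649 to 76049 and 59549 to 85038 with fluoxetine, in the same order. Striatal markers gave no single direction: of 12, 3 had a rho of 0.5 or above and 4 of -0.5 or below. Their sum was 6835 to 9097 in wild-type and 6903 to 9739 in heterozygous vehicle, 7078 to 8999.9 and 7533 to 8757 in lithium, and 7062 to 8455 and 7365 to 19088 in fluoxetine libraries. The part of these cells in the marker differences was not tested. Of all lists in the comparisons without vehicle, genes passed limma only between the drugs in heterozygous mice, where Tubb3 (0.17) and Axin2 (0.16) rose and the striatal gene Rgs9 (-0.74) fell with lithium against fluoxetine. Without heterozygous fluoxetine males 3 and 4, Axin2 was still called (0.16, limma adjusted p = 0.0332), and Rgs9 (-0.35, limma adjusted p = 0.133) and Tubb3 (0.11, limma adjusted p = 0.514) were not. With only the groups compared in the fit, none of the 3 was called (limma adjusted p of 0.363 to 0.397).

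**Figure D4:**
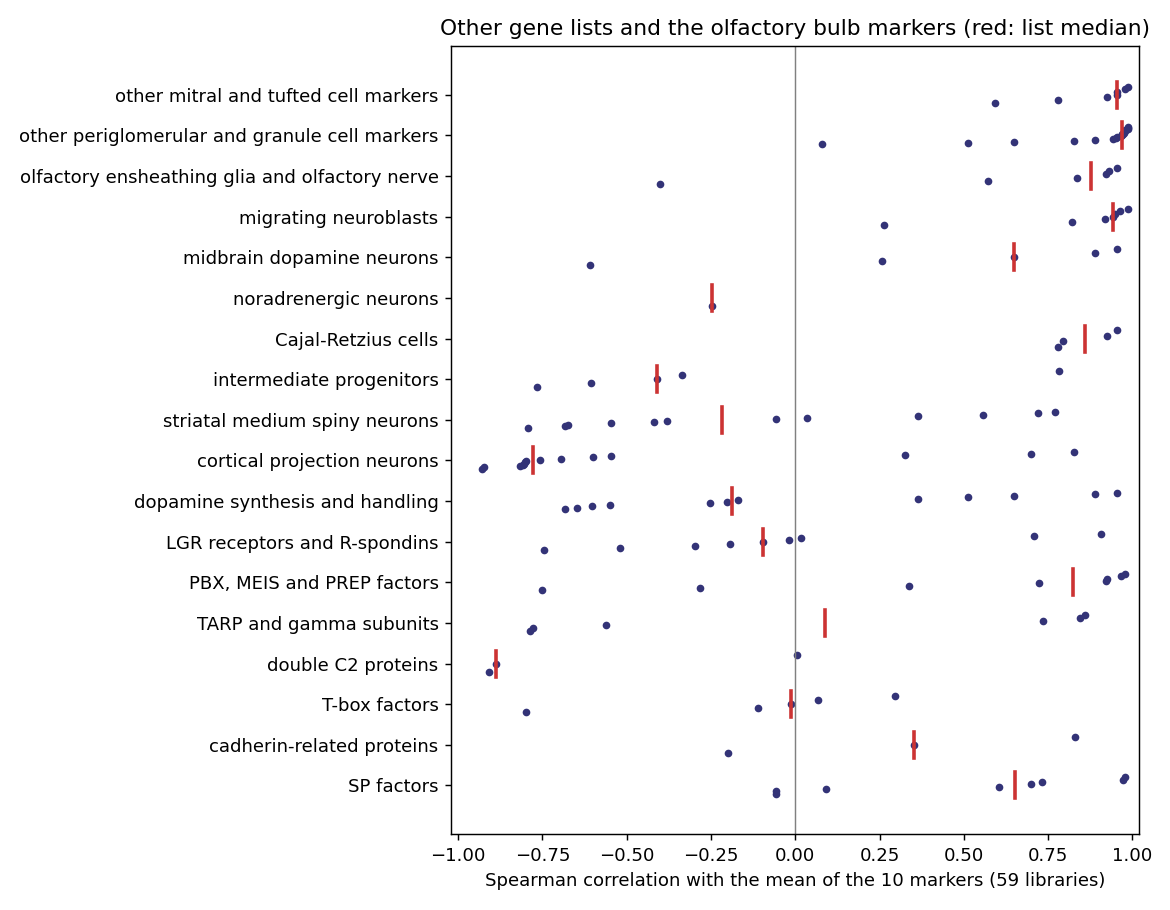
Spearman's rho of each gene of 18 other lists with the mean of the 10 markers over the 59 libraries (x axis), 1 point per gene and a red bar at the list median. Other bulb lists lie near 1, cortical projection neuron genes mostly below -0.5, and the gene families of the markers are spread over both signs.

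Relatives of the 10 genes did not all share their pattern. Of the double C2 proteins, Doc2a and Rph3a, a rabphilin of synaptic vesicles, had a rho of -0.89 and -0.91, opposite in sign to Doc2g, and Doc2b had 0.01. Of the T-box factors, Tbr1, a factor of deep cortical layers, had -0.80, and Tbx1, Tbx2, Tbx3 and Tbx18 lay between -0.11 and 0.30. Lgr4, the third receptor of its family, had 0.91 but a narrower range than Lgr5, from 686 to 1845 normalized counts. Of the ligands, Rspo3 had 0.71 and Rspo2 -0.75, and the Wnt target Axin2 had -0.19. Of the partners of Pbx3, Meis1 (0.98), Meis2 (0.97) and Pknox1 (0.92) lay high and Pknox2 (-0.75) low. Of the AMPA receptor subunits related to Cacng5, Cacng4 (0.86) and Cacng7 (0.85) lay high and Cacng2 (-0.79) and Cacng3 (-0.78) low. Of the SP factors, Sp7 (0.97) and Sp9 (0.98) were closest to Sp8, and of the cadherin-related genes, Cdhr3 (0.83) was closest to Cdhr1. Among the dopamine genes, Maob had -0.55 and Gch1, which makes the cofactor of Th, 0.51.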

How the data were processed

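Polyadenylated RNA of 59 mouse prefrontal cortex samples was sequenced from stranded libraries. The authors deposited 1 table of a normalized signal per gene, counts divided by a size factor of the library. The tools named, without their roles, are DESeq2 1.19.11, Salmon 0.11.2 and R 3.6.0, and the build is GRCm38, per the submitters' processing notes. Dividing by the smallest step of a library gave whole counts, within 0.01, for 100% of values; in 3 libraries the step was too near 1 to show it. The 17901 genes at 10 or more in at least 4 libraries, the 10 markers among them, were analysed as log2(value + 1), which understates changes of low genes. limma 3.58.1 with a trend was fitted in R 4.3.3 with 1 mean per group of genotype, drug and sex (12 groups, 47 residual degrees of freedom) and Benjamini-Hochberg adjustment over all genes at 0.05. The replicates of a group all differed by more than counting error (chi-square per gene 3.17 to 87.5 over 116 pairs).

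The markers and lists were chosen with earlier results of these data known. Genes were named by rule: the 10 markers, list genes that passed or had the highest levels, defining markers of other cell types, the 10 genes most and the 10 least correlated with the markers, and the nearest of each. Other list genes named by their rho, and those so marked, were chosen after their values were seen. Lengths come from GENCODE M21 exons. In simulated counts with 200 changed genes among 17901, limma recovered 83% at 1.5-fold and 93% at 2-fold for genotype under lithium, with 11 false calls. The simulation gave all genes the same dispersion and the libraries no shared differences. Within groups the markers had log2 SDs of 0.82 (Cacng5) to 1.78 (Eomes), against a median of 0.18 over the genes tested. These recovery rates therefore do not apply to the markers. Alternatives were a pseudocount of 5, no filter, a filter of 100, TMM factors, edgeR 4.0.16 on the recovered counts, the replicate number as a block, only the groups compared, leaving out heterozygous fluoxetine males 3 and 4, and leaving out each library.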

Additional observations from a re-analysis of the deposited data

Results flagged for a closer look

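Of 120 combinations of marker and group, 7 held a library far from the others of its group by the gap that Dixon's test uses. Chance gives about 1 in 20, which is close to what was seen, and the 10 genes share their libraries, so the cases are not separate. They are values only. Wild-type vehicle male 1 was above the other 4 males for Doc2g (851 normalized counts), Th (393) and Lgr6 (339.8). Wild-type lithium male 1 was above the other 4 for Lgr5 (636), Lgr6 (711) and Cacng5 (1455). Heterozygous fluoxetine female 2 was above the other 4 females for Tbx21 (419).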

How the results depend on the processing

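With a pseudocount of 5, no filter, a filter of 100, TMM factors or the replicate block, no marker passed limma in any comparison tested. Fitting only the groups compared changed the count of markers to 10 between the drugs in wild-type mice, and the count of genes called there from 28 to 2881; elsewhere it gave 0 genes for genotype and for genotype by sex under fluoxetine, and 0 between the drugs in heterozygous mice (1214, 3199 and 2042 at an unadjusted p under 0.05). edgeR called 44 genes for genotype under fluoxetine, 1136 between the drugs in heterozygous mice and 607 for genotype by sex under fluoxetine, where limma called 2, 588 and 7. A filter of 100 called 50 genes between the drugs in wild-type mice. Without heterozygous fluoxetine males 3 and 4 the counts were 9 for genotype under lithium, 1 for genotype and 0 for genotype by sex under fluoxetine, 362 between the drugs in wild-type and 21 in heterozygous mice. That setting turned Lgr6 to 0.047 for genotype under fluoxetine, and Doc2g to -0.30, Cdhr1 to -0.30, Eomes to -0.33 and Lgr6 to -0.27 between the drugs in heterozygous mice. There edgeR turned Th to 0.30, Tbx21 to 0.43, Lgr5 to 0.17, Pbx3 to 0.19, Cacng5 to 0.18 and Sp8 to 0.15, and a pseudocount of 5 turned Tbx21 to 0.0327. The cause was not tested. TMM factors moved the median gene by -0.0089 on the log2 scale.

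Leaving out each library gave 2 to 32 genes for genotype under lithium (most without heterozygous lithium male 5), 1 to 622 under fluoxetine (most without heterozygous fluoxetine male 5), 9 to 131 between the drugs in wild-type mice (fewest without wild-type fluoxetine female 1, most without heterozygous fluoxetine male 3), 64 to 2483 in heterozygous mice (without heterozygous fluoxetine male 4 and male 5), 25 to 34 between the sexes and 0 to 2445 for genotype by sex under fluoxetine (most without heterozygous fluoxetine male 2). Counts of markers stayed at 0 in each, apart from Lgr5 as given above. Between the drugs in heterozygous mice the difference ran from -0.32 to 0.36 for Th, -0.25 to 0.47 for Tbx21, -0.23 to 0.26 for Sp8, -0.20 to 0.28 for Lgr5, -0.18 to 0.24 for Lgr6, -0.15 to 0.27 for Pbx3 and -0.18 to 0.23 for Cacng5. The replicate numbers do not pair the mice: same-numbered libraries of different groups had a median correlation of -0.00362, and differently numbered ones of -0.00201. With the replicate block, limma called 2 genes for genotype under lithium and 2 under fluoxetine, 30 and 544 between the drugs in wild-type and heterozygous mice, 27 between the sexes and 5 for genotype by sex under fluoxetine.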
